A study of Mus musculus with 12 samples.

Results

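The genes described here encode mitochondrial complex II, which is succinate dehydrogenase, together with the proteins that assemble it. They were chosen by name from the table of gene counts, as the 4 subunit genes Sdha, Sdhb, Sdhc and Sdhd and the 4 assembly factor genes Sdhaf1, Sdhaf2, Sdhaf3 and Sdhaf4. These 8 genes are 8 of 25171 loci in the table, and all 8 passed the filter on low counts in every comparison.

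Complex II sits in the inner mitochondrial membrane and belongs to the tricarboxylic acid cycle and to the respiratory chain alike. It oxidises succinate to fumarate and passes the electrons to ubiquinone, from which complex III takes them. It moves no protons, and it is the respiratory complex whose subunits are all encoded in the nucleus. In the heart, which draws most of its energy from oxidative metabolism, its genes are highly expressed.

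Heart RNA was sequenced from 12 mice in 4 groups of 3. In both models the transgene is NOTCH2NLC with 98 GGC repeats, inserted at the Rosa26 site behind a stop sequence that Cre recombinase removes. EIIa-tg mice express it ubiquitously through EIIa-Cre and were studied at P30, with EIIa-ctl littermates that carried the conditional transgene without this Cre. Myh6-tg mice carry a Cre made from the cardiomyocyte promoter Myh6 and activated by tamoxifen, received 3 injections of 75 mg per kg from P60, and were studied at P90, while Myh6-ctl littermates received corn oil alone. The labels give both Myh6 groups the same transgenic genotype, so by the labels the Myh6-ctl hearts also carry the inducible Cre. The labels of EIIa-tg replicates 2 and 3 name other transgenic genotypes than replicate 1, and these hearts were grouped by their titles. The comparison within each model asks how the complex II transcripts stood in hearts that express the repeat, everywhere or in cardiomyocytes alone. In the EIIa model the repeat and the Cre differ together between the groups. In the Myh6 model the repeat, Cre activation and tamoxifen against corn oil do. These cannot be told apart.

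The 8 genes lie on 7 chromosomes of GRCm38 and are annotated as protein-coding in GENCODE M21. Sdha is at chr13:74322254-74350280 on the minus strand, Sdhb at chr4:140961203-140979193 on the plus strand, Sdhc at chr1:171127165-171150603 on the minus strand and Sdhd at chr9:50596357-50603812 on the minus strand. Sdhaf1, a gene of a single exon, is at chr7:30321406-30323895 on the minus strand, Sdhaf2 at chr19:10500534-10526142 on the minus strand, Sdhaf3 at chr6:6956004-7042979 on the plus strand and Sdhaf4 at chr1:23995939-24005656 on the minus strand. Of the 2490 exonic bases of Sdhaf1, 1733 are shared with E130208F15Rik on the opposite strand, which is listed with 0 counts in all 12 hearts. Sdhaf2 shares 94 exonic bases with Cpsf7 and Sdhaf4 shares 111 with Gm26524, on the opposite strand in each case. The library kit is not described as keeping the strand, so reads from these shared bases cannot be told apart.

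RefSeq promoter windows (250 bases before to 50 after the start, GRCm38.p6) were found for 7 of the 8 genes, Sdhc being the exception. The windows were searched on both strands for GCGCA followed after any 1 base by GCGC, the core letters bound by NRF1, a transcription factor of nuclear genes for mitochondrial proteins, and for CCGGAAG, the core letters of ETS factors, and no match overlapped another. The NRF1 letters stood in 4 of the 7 windows, against 4.6% of 32851 windows in the whole table. The ETS letters stood in 5 of the 7, against 8.86%. AAGGTCA, the letters of the oestrogen-related receptors that also act on such genes, stood in 1 of the 7, against 4.72%. These matches describe the letters only. The stretches from 130 bases before to 20 after the start are printed for Sdha, which has the most NRF1 matches, for Sdhd and Sdhaf3, which have both motifs, and for Sdhaf4, whose transcript fell furthest. They cover chr13:74350221-74350370, chr9:50603830-50603979, chr6:6955888-6956037 and chr1:24005621-24005770, each read on the strand of its gene, with the matches in capitals.
Sdha: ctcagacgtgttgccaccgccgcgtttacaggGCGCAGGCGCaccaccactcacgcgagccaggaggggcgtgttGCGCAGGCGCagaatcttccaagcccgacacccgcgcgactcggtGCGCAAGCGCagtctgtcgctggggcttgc
Sdhd: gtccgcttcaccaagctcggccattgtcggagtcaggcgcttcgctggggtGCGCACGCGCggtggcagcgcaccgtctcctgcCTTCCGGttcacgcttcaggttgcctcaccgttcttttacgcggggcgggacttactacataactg
Sdhaf3: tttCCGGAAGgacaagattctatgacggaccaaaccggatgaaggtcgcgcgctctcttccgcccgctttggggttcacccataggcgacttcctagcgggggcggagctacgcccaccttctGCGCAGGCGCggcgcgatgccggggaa
Sdhaf4: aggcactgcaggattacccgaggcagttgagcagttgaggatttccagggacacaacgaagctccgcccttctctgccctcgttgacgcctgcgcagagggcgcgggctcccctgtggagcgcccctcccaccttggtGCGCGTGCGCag
In the stretch of Sdha the capitals mark 3 NRF1 matches. In those of Sdhd and Sdhaf3 they mark 1 NRF1 and 1 ETS match each. In that of Sdhaf4 they mark 1 NRF1 match.

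Each heart gave between 38343106 and 50969834 counts, and even the least abundant gene here, Sdhaf3, had between 159 and 432 counts per heart. A check of the labels gave 1 result that did not match them. Esr1, the oestrogen receptor whose ligand-binding part is built into tamoxifen-dependent Cre proteins, stood at 1031 to 2331 CPM (TMM-normalised counts relative to library size) in the Myh6-ctl hearts and at 1.00 to 2.52 in the Myh6-tg hearts, although the labels give both groups the same inducible Cre. Hearts are therefore named by their labels throughout. Whatever lies behind this Esr1 difference also separates the Myh6 groups, and it cannot be told apart from the repeat or tamoxifen. Sqstm1, which encodes the p62 protein that collects in protein inclusions, stood at 785 to 1258 CPM in EIIa-tg against 352 to 399 in EIIa-ctl, and at 1782 to 2007 in Myh6-tg against 446 to 941 in Myh6-ctl. Replicate 1 of every group had 4224 to 7307 counts on Y-linked genes and every other heart had 2 or fewer. The extraction text names brain, but 8 cardiomyocyte markers summed to 9260 to 50712 CPM per heart. A list of 6 neuron and glia markers summed to 2.31 to 8.14 CPM. The most counts in any heart were 358 for Mbp, 140 for Syn1 and 5 for Snap25 of that list. Within their groups, EIIa-tg replicate 2 stood nearest to its controls, Myh6-ctl replicate 3 was low and Myh6-tg replicate 1 was high for the subunits, and counts of changed genes are given without these hearts as well.

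In the control hearts the subunit transcripts were among the most abundant of the 15929 genes ranked, at or above the 96.8th percentile of FPKM, a scale that allows for transcript length. In EIIa-ctl hearts Sdhb was highest at 561 ± 21.8 FPKM (SD, n = 3), followed by Sdha at 369 ± 26.9, Sdhd at 310 ± 12.5 and Sdhc at 103 ± 5.72. The assembly factors were lower, with Sdhaf4 at 32.6 ± 3.15 FPKM, Sdhaf2 at 18.7 ± 0.411, Sdhaf1 at 6.96 ± 1.16 and Sdhaf3 at 1.77 ± 0.0697. No neighbours in this order overlapped in EIIa-ctl hearts. The order of the means was the same in Myh6-ctl hearts, where the ranges of Sdha (262 to 317 FPKM) and Sdhd (233 to 300) overlapped. In Myh6-tg hearts Sdhd (160 ± 35.1 FPKM) stood above Sdha (139 ± 44.6) by their means, with ranges that overlapped, and so did those of Sdhaf4 (9.09 to 13.9) and Sdhaf2 (9.08 to 11.2).

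Complex II transcripts were lower in the transgenic hearts of both models, for most of the 8 genes in Myh6-tg and for a pair of assembly factors in EIIa-tg. In Myh6-tg hearts, 6 of 8 genes were lower at an adjusted p under 0.05 by the quasi-likelihood test of edgeR, against 9.38% of all genes tested. They were the 4 subunits with Sdhaf2 and Sdhaf4. In EIIa-tg hearts, 2 of 8 were lower, Sdhaf2 and Sdhaf4, against 8.3% of all genes tested. The median log2 fold change of the 8 genes was -1.10 in Myh6-tg and -0.47 in EIIa-tg, where the medians over all genes tested were 0.03 and 0.02. The estimates were below 0 for all 8 genes in both models, as were 47.9% of all genes in the Myh6 comparison and 48.6% in the EIIa comparison. The transgenic hearts lay below their controls without overlap for 7 of 8 genes in the Myh6 model, against 19.6% of all genes, and for 6 of 8 in the EIIa model, against 20.8%. A stricter limit, a change of 1 or more on the log2 scale with an adjusted p under 0.01, was passed by 1 gene in Myh6-tg, Sdhaf4, where 2.05% of all genes passed it downwards. By edgeR no gene of the 8 passed it in EIIa-tg, where 0.0% of all genes passed it downwards. DESeq2 also found 0 of the 8 there, against 1.4% of all genes downwards, and limma 0 of the 8, against 0.0%. By edgeR with no adjustment, 6 of the 8 were lower in EIIa-tg at a p under 0.05, against 17.4% of all genes.

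These counts depended on single hearts, and the share of all genes called lower moved with them. Without Myh6-tg replicate 1, all 8 genes were lower in Myh6-tg, against 13.9% of all genes tested, and without Myh6-ctl replicate 3, 5 were, against 5.98%. Without any 1 of the other 4 hearts (Myh6-ctl replicate 1 or 2, Myh6-tg replicate 2 or 3), Sdhaf4 alone was lower, against 2.58% to 5.73% of all genes. In the EIIa model, 5 genes were lower without EIIa-tg replicate 2, against 13.8% of all genes. Sdhaf2 was the 1 gene lower without EIIa-ctl replicate 2, against 5.11%, and likewise without EIIa-tg replicate 3, against 0.191%. Without EIIa-tg replicate 1, EIIa-ctl replicate 1 or EIIa-ctl replicate 3, edgeR called 0 of the 8 genes and 0 of all genes lower, so these fits say nothing particular about complex II. At an unadjusted p under 0.05 in either direction, 4 of the 8 passed without EIIa-tg replicate 1, beside 4173 of 15194 genes. Without EIIa-ctl replicate 1 it was 3 of the 8, beside 4036 of 15359 genes. Without EIIa-ctl replicate 3 it was also 3, beside 4018 of 15380 genes. At the stricter limit Sdhaf4 no longer passed in Myh6-tg in 5 of the 6 fits that left out a heart, where 0.0879% to 0.226% of all genes passed downwards. Without Myh6-tg replicate 1, 5 genes passed, against 6.09% of all genes. In EIIa-tg 1 gene passed it without EIIa-tg replicate 2, against 3.02% of all genes downwards.

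**Figure D1:**
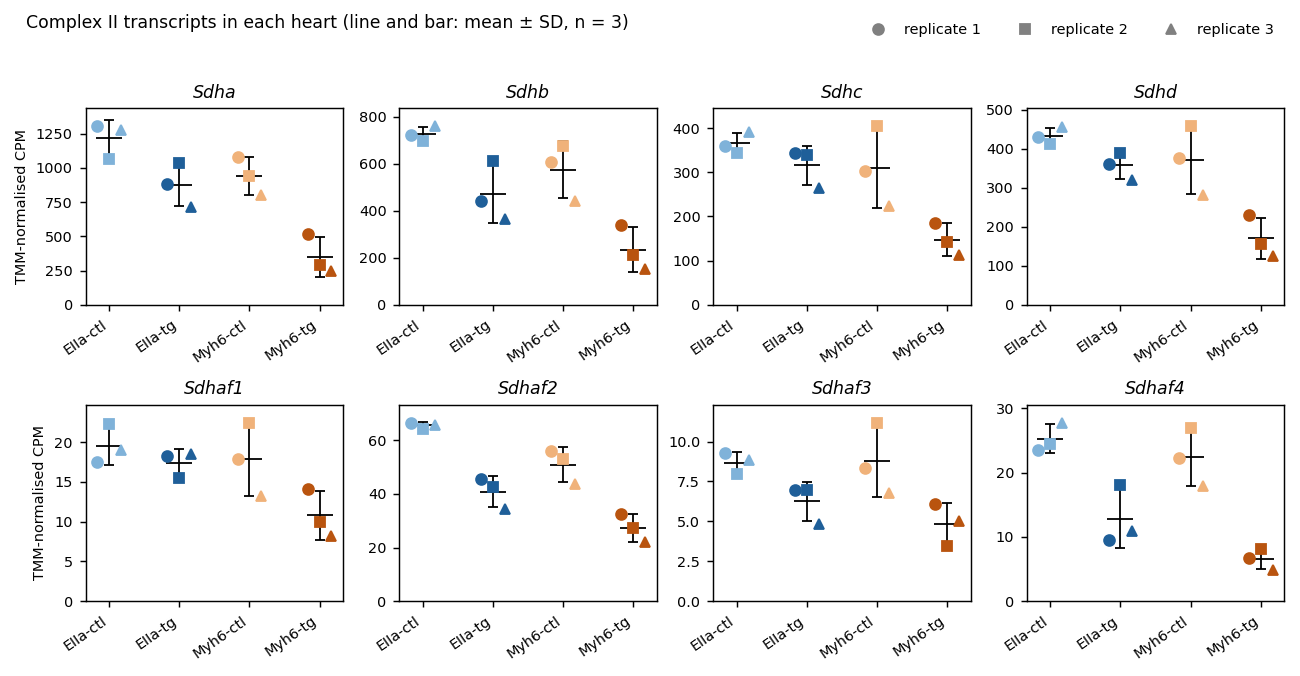
Normalised counts (CPM, vertical axis starting at 0) of the 8 complex II genes in each of the 12 hearts, by group on the horizontal axis, with symbols for the replicates and black lines for the mean ± SD (n = 3). Myh6-tg hearts lie below all Myh6-ctl hearts for every gene other than Sdhaf1, and EIIa-tg replicate 2 (squares) lies nearest to its controls for Sdha, Sdhb and Sdhaf4.

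Sdha encodes the flavoprotein that binds succinate and carries the covalently bound FAD. The EIIa-ctl hearts had 1305, 1063 and 1278 CPM (replicates 1 to 3, as in all such series below) and the EIIa-tg hearts 880, 1036 and 717 CPM. The Myh6-ctl hearts had 1077, 940 and 806 CPM and the Myh6-tg hearts 515, 290.0 and 246 CPM. The groups did not overlap in either model, although EIIa-tg replicate 2 came close to the lowest control. In Myh6-tg Sdha fell to 37.2% of the control level (-1.43 ± 0.32 on the log2 scale, SE, adjusted p = 0.0218), the largest fall of any subunit. In EIIa-tg the log2 fold change was -0.47 ± 0.17 (adjusted p = 0.0836).

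Sdhb encodes the iron-sulfur subunit that leads electrons from the flavin towards ubiquinone. The EIIa-ctl hearts had 723, 697 and 760.0 CPM against 443, 610 and 365 CPM with EIIa-tg, and the Myh6-ctl hearts 609, 676 and 442 CPM against 340, 213 and 153 CPM with Myh6-tg. The transgenic hearts were lower without overlap in both models, and Myh6-ctl replicate 3 was the lowest control. In Myh6-tg Sdhb fell to 40.9% of the control level (log2 fold change -1.29 ± 0.33, adjusted p = 0.0329). In EIIa-tg it had the largest estimate among the subunits, at -0.62 ± 0.19 (adjusted p = 0.0532).

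Sdhc and Sdhd encode the membrane anchors that hold the haem group and form the ubiquinone site with Sdhb. For Sdhc the EIIa-ctl hearts had 360.2, 343.7 and 392 CPM against 343.8, 338 and 265 CPM with EIIa-tg, and the Myh6-ctl hearts 303, 404 and 224 CPM against 186, 143 and 112 CPM with Myh6-tg. For Sdhd they had 431, 413 and 455 CPM against 361, 390.4 and 321 CPM with EIIa-tg, and 376, 458 and 282 CPM against 229, 155 and 126 CPM with Myh6-tg. Both were lower without overlap in Myh6-tg, while in EIIa-tg the Sdhc values of replicate 1 and of EIIa-ctl replicate 2 were nearly equal. The falls in Myh6-tg were -1.08 ± 0.29 on the log2 scale for Sdhc (adjusted p = 0.0371) and -1.13 ± 0.29 for Sdhd (adjusted p = 0.0332). In EIIa-tg the estimates were the smallest of the subunits, -0.21 ± 0.13 for Sdhc (adjusted p = 0.280) and -0.28 ± 0.11 for Sdhd (adjusted p = 0.121), and on the FPKM scale the estimate for Sdhc turned to 0.01.

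Sdhaf4 encodes the factor that holds flavinylated Sdha and promotes its joining with Sdhb. The EIIa-ctl hearts had 23.5, 24.4 and 27.8 CPM and the EIIa-tg hearts 9.57, 18.1 and 10.9 CPM. The Myh6-ctl hearts had 22.3, 26.9 and 18.0 CPM and the Myh6-tg hearts 6.75, 8.07 and 4.86 CPM. No transgenic heart reached the lowest control, and EIIa-tg replicate 2 stood apart from the other EIIa-tg hearts. Sdhaf4 had the largest fall of the 8 genes in both models. It was left at 29.3% of the control level in Myh6-tg (log2 fold change -1.77 ± 0.26, adjusted p = 0.00596) and at 50.97% in EIIa-tg (-0.97 ± 0.23, adjusted p = 0.0303). In the Myh6 comparison its adjusted p stayed under 0.05 in each of 18 other settings, the highest being 0.0315. In the EIIa comparison it ranged up to 0.108.

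Sdhaf2 encodes the factor that helps insert FAD into Sdha. The EIIa-ctl hearts had 66.6, 64.2 and 65.8 CPM, an SD of 1.83% of the mean, and the EIIa-tg hearts 45.5, 42.6 and 34.3 CPM. The Myh6-ctl hearts had 56.0, 53.0 and 43.7 CPM and the Myh6-tg hearts 32.5, 27.2 and 22.0 CPM. It was lower in both models without overlap, and EIIa-tg replicate 2 did not stand near the controls for this gene. The log2 fold change was -0.69 ± 0.12 in EIIa-tg (adjusted p = 0.0167, the lowest of the 8 genes there) and -0.90 ± 0.20 in Myh6-tg (adjusted p = 0.0213).

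Sdhaf1 and Sdhaf3 encode small proteins of the LYR family that aid the iron-sulfur subunit. For Sdhaf1 the EIIa-ctl hearts had 17.4, 22.2 and 19.0 CPM against 18.2, 15.5 and 18.5 CPM with EIIa-tg, and the Myh6-ctl hearts 17.8, 22.4 and 13.3 CPM against 14.2, 9.96 and 8.21 CPM with Myh6-tg. For Sdhaf3 they had 9.27, 7.95 and 8.83 CPM against 6.95, 6.95 and 4.83 CPM with EIIa-tg, and 8.32, 11.2 and 6.76 CPM against 6.09, 3.45 and 4.997 CPM with Myh6-tg. Sdhaf1 overlapped between groups in both models, and Sdhaf3 in neither. Neither passed the test. For Sdhaf1 the log2 fold changes were -0.17 ± 0.13 in EIIa-tg (adjusted p = 0.382) and -0.73 ± 0.28 in Myh6-tg (adjusted p = 0.108), and on the FPKM scale the EIIa-tg estimate turned to between 0.02 and 0.03. For Sdhaf3 they were -0.48 ± 0.18 (adjusted p = 0.101) and -0.85 ± 0.30 (adjusted p = 0.0882).

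**Figure D2:**
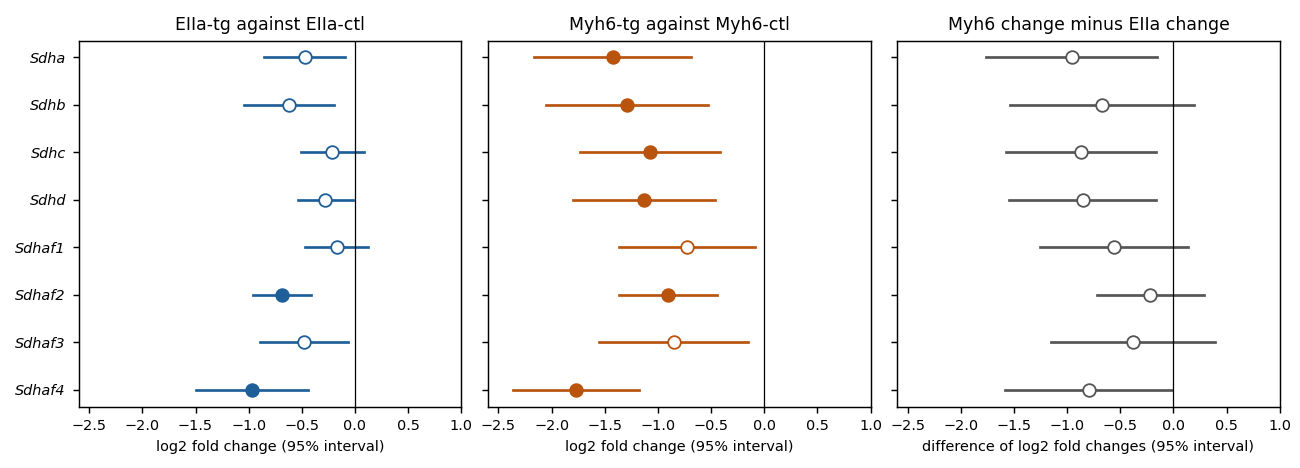
Log2 fold changes of the 8 genes with 95% intervals in EIIa-tg (left) and Myh6-tg hearts (middle), and the difference between these changes (right), with filled circles for an adjusted p under 0.05 and open circles for the rest. All estimates lie left of 0, 2 circles are filled on the left and 6 in the middle, and no circle is filled on the right.

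Whether the change differed between the models was tested as an interaction in all 12 hearts. The estimates were more negative in the Myh6 model for all 8 genes, as for 52.9% of all genes, and no gene of the 8 passed at an adjusted p under 0.05, against 3.92% of all genes. By edgeR 4 of them, Sdha, Sdhc, Sdhd and Sdhaf4, were lower at an unadjusted p under 0.05, against 10.8% of all genes. At an adjusted p under 0.05, DESeq2 also called 0 of the 8, against 6.72% of all genes. With limma on FPKM it was 0 of the 8 too, against 2.94% to 5.76%. The differences in log2 fold change were -0.96 for Sdha (95% interval -1.76 to -0.15, adjusted p = 0.178), -0.87 for Sdhc (-1.57 to -0.16, adjusted p = 0.163) and -0.85 for Sdhd (-1.54 to -0.16, adjusted p = 0.162). For Sdhaf4 it was -0.80 (-1.58 to -0.01, adjusted p = 0.249). For Sdhaf2 the difference was -0.22 (95% interval -0.72 to 0.28), the smallest of the 8. Without Myh6-tg replicate 1, Sdha, Sdhc and Sdhd passed, and the share of all genes that passed rose to 10.6%.

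The 2 control groups differ in age, line, Cre and corn oil at once, which cannot be told apart. Myh6-ctl against EIIa-ctl hearts gave no change in the 8 genes at an adjusted p under 0.05 by edgeR, where 0.0334% of all genes passed. DESeq2 also called 0 of the 8, against 2.23% of all genes. With limma on FPKM it was 0 of the 8 as well, against 0.0052% to 0.0639%. By edgeR Sdhaf2 alone had an unadjusted p under 0.05, as 11.3% of all genes had, and its estimate was -0.36 ± 0.14 on the log2 scale (adjusted p = 0.368). The other estimates ran from -0.37 for Sdha to 0.01 for Sdhaf3, and those of Sdhaf1 and Sdhaf3 changed sign with the processing.

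Ratios within a heart do not depend on the scaling between hearts and are given as a description. Of the summed FPKM of the 4 subunits, Sdha made up 26.7% ± 3.31 of Myh6-ctl (SD, n = 3) and 23.3% ± 1.48 of Myh6-tg hearts, with overlapping ranges. Sdhb made up 41.8% ± 1.05 of EIIa-ctl and 36.9% ± 3.11 of EIIa-tg hearts, each EIIa-tg heart lying below its controls. The share of Sdhc was 7.64% ± 0.183 with EIIa-ctl and 9.35% ± 0.948 with EIIa-tg, without overlap, and 7.998% ± 0.9996 with Myh6-ctl and 9.67% ± 1.24 with Myh6-tg, with overlap. Per 100 FPKM of Sdha there were 8.87 ± 1.09 of Sdhaf4 with EIIa-ctl and 6.15 ± 1.43 with EIIa-tg, without overlap. In the Myh6 model the same ratio was 10.1 ± 1.77 and 8.58 ± 3.14, with overlap. Sdhaf2 went the other way in Myh6-tg, from 5.08 ± 0.207 to 7.69 ± 1.55 per 100 of Sdha, without overlap. Sdhaf1 per 100 of Sdhb was 1.41 ± 0.0949 with Myh6-ctl and 2.17 ± 0.276 with Myh6-tg, also without overlap.

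**Figure D3:**
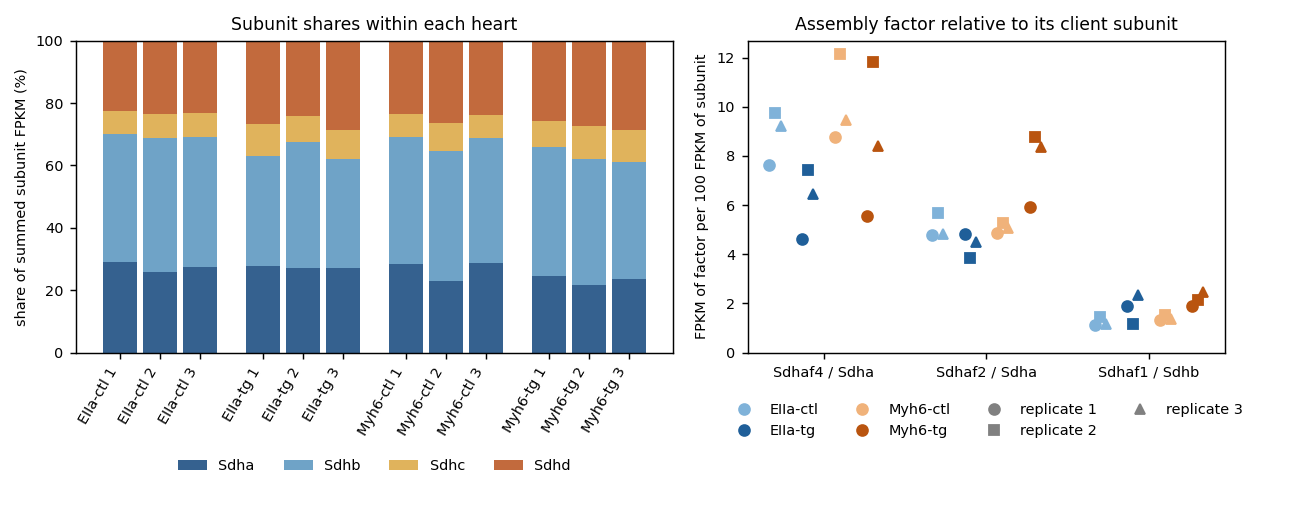
Left, the share of each subunit in the summed FPKM of the 4 subunits (percent, stacked from 0) in each heart. Right, FPKM of an assembly factor per 100 FPKM of the subunit it serves, by group and replicate, where Sdhaf4 per Sdha is lower in all 3 EIIa-tg hearts than in EIIa-ctl, and Sdhaf2 per Sdha is higher in all 3 Myh6-tg hearts than in Myh6-ctl.

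Most of the 8 cardiomyocyte markers examined had estimates below 0 in the transgenic hearts, as the complex II genes had. In bulk tissue, fewer cardiomyocytes and less of an RNA per cardiomyocyte cannot be told apart. Of 8 cardiomyocyte markers, 7 had estimates below 0 in each model, and 5 were lower in Myh6-tg and 2 in EIIa-tg at an adjusted p under 0.05. For these and the other markers below, 9.38% of all genes were lower in Myh6-tg and 8.3% in EIIa-tg. Higher were 1370 of 15298 genes in Myh6-tg and 1289 of 14908 in EIIa-tg. Among the 8 cardiomyocyte markers the exception in both models was Tnnt2, which encodes cardiac troponin T, with log2 fold changes of 0.44 in Myh6-tg (adjusted p = 0.559) and 0.09 in EIIa-tg (adjusted p = 0.691) and 9675 CPM in Myh6-tg replicate 1. For all 8 markers, Tnnt2 included, the summed level was 9260 to 29956 CPM with Myh6-tg against 32134 to 43447 with its controls, and 20712 to 36604 with EIIa-tg against 41996 to 50712. The summed level of the 4 subunits was 637 to 1271 CPM with Myh6-tg against 1753 to 2478 with its controls, and 1668 to 2375 with EIIa-tg against 2517 to 2885. The same hearts were highest for both sums in the transgenic groups, Myh6-tg replicate 1 and EIIa-tg replicate 2. Per 100 FPKM of these markers the subunits had 4.75 ± 0.198 FPKM with Myh6-ctl and 4.44 ± 0.928 with Myh6-tg (SD, n = 3), with overlap. In the EIIa model they had 5.19 ± 0.261 with EIIa-ctl (4.94 to 5.46) and 6.05 ± 0.638 with EIIa-tg (5.44 to 6.71), also with overlap. Of 6 fibroblast markers 3 were higher in Myh6-tg and 2 in EIIa-tg, with sums of 2492 to 5907 CPM in Myh6-tg against 1764 to 2117 in Myh6-ctl, and 2368 to 3445 in EIIa-tg against 1327 to 1871 in EIIa-ctl. Of 6 macrophage markers all 6 were higher in EIIa-tg (summed level 893 to 1164 CPM, against 408 to 642), and their summed level was 872 to 1987 CPM in Myh6-tg against 775 to 1316 in Myh6-ctl. Endothelial markers were lower along with complex II in EIIa-tg, where 3 of 6 passed and the summed level was 725 to 825 CPM against 943 to 1092, without overlap. In Myh6-tg all 6 estimates were below 0 (median -0.66) and the summed level was 551 to 673 CPM against 596 to 1267, with overlap. The part of these cell types in the complex II values was not tested.

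**Figure D4:**
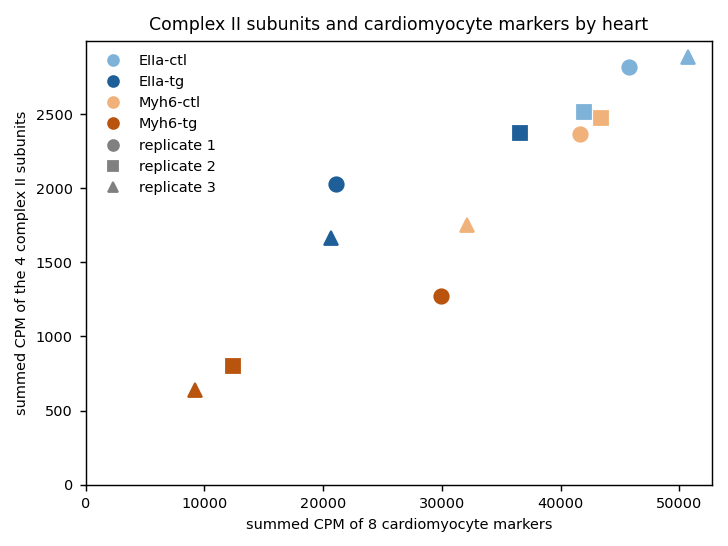
Summed CPM of the 4 complex II subunits (vertical axis) against the summed CPM of 8 cardiomyocyte markers (horizontal axis) in each of the 12 hearts, both axes starting at 0, coloured by group with symbols for replicates. Myh6-tg replicates 2 and 3 are lowest on both axes and Myh6-tg replicate 1 lies between them and the controls.

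The succinate that complex II uses comes mainly from the earlier steps of the tricarboxylic acid cycle. Of the 15 cycle genes outside complex II, 10 were lower in Myh6-tg and 4 in EIIa-tg, with no gene higher, and the median log2 fold changes were -1.26 and -0.48. Beside the counts of this list and of those that follow, 9.38% of all genes tested were lower in Myh6-tg and 8.3% in EIIa-tg. Suclg2, a subunit of the succinyl-CoA ligase that makes succinate, fell by 1.74 on the log2 scale in Myh6-tg (SE 0.24, adjusted p = 0.00563). Fh1, the fumarase that takes the product of complex II, fell by 1.31 there (adjusted p = 0.00917). Dlst, part of the 2-oxoglutarate dehydrogenase complex, had the lowest p of the list in EIIa-tg, at -0.83 ± 0.19 on the log2 scale (adjusted p = 0.0261). Per 100 FPKM of these cycle genes the subunits had 23.3 ± 0.721 FPKM with EIIa-ctl against 22.8 ± 0.777 with EIIa-tg, and 23.1 ± 0.755 with Myh6-ctl against 22.9 ± 1.88 with Myh6-tg, and these ranges overlapped within each model.

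The list of other routes to succinate also holds carriers, its receptor and Hif1a, and its genes changed in both directions. The only genes called higher were the carrier Slc25a1 in EIIa-tg and the receptor Sucnr1 in Myh6-tg. Oxct1, the enzyme of ketone use that releases succinate, fell by 1.85 on the log2 scale in Myh6-tg (SE 0.31, adjusted p = 0.00945) and by 1.28 in EIIa-tg (adjusted p = 0.0465). Abat, which starts the route from GABA, fell by 1.76 in EIIa-tg (adjusted p = 0.0186), and its log2 fold change in Myh6-tg was -0.10 (adjusted p = 0.892). Slc25a1, the citrate carrier, rose by 0.76 in EIIa-tg (SE 0.15, adjusted p = 0.0220). Sucnr1, the cell-surface receptor for succinate, stood at 0.125 ± 0.0291 CPM in Myh6-ctl and 0.803 ± 0.378 in Myh6-tg (SD, n = 3). The control level was near that of 3 counts (0.0589 to 0.0641 CPM in these hearts). Sucnr1 passed the filter on low counts only through the Myh6-tg hearts. Its log2 fold change of 2.65 (SE 0.67, adjusted p = 0.0314) therefore gives no support of its own for a rise. In all, 2 of the 7 tested genes of this list were lower and 1 higher in Myh6-tg, and 3 of 6 lower and 1 higher in EIIa-tg.

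Complex II needs FAD, iron-sulfur clusters and haem to be active. Of 17 tested genes for FAD and iron-sulfur supply, 6 were lower in Myh6-tg and 4 in EIIa-tg with no gene higher, and the medians were -0.77 and -0.29. Isca1, which builds iron-sulfur clusters, fell by 1.09 on the log2 scale in Myh6-tg (SE 0.20, adjusted p = 0.0121). Bola3, which helps to deliver them, stood at -0.93 ± 0.18 in EIIa-tg (adjusted p = 0.0214). Flad1, the FAD synthase, was lower in both models, by -1.40 in Myh6-tg (adjusted p = 0.0423) and -1.14 in EIIa-tg (adjusted p = 0.0247). Iscu, the scaffold on which the clusters are made, had estimates of -0.04 in Myh6-tg and -0.0035 in EIIa-tg and did not pass in either.

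Ubiquinone takes the electrons of complex II. Of 13 genes for making or carrying it, 9 were lower in Myh6-tg and 8 in EIIa-tg, and 1 was higher in both, which was Coq8b, at 0.82 ± 0.17 in Myh6-tg (adjusted p = 0.0183) and 0.65 ± 0.19 in EIIa-tg (adjusted p = 0.0467). Coq2, the transferase that joins the ring and the tail of ubiquinone, fell by 1.54 in Myh6-tg (SE 0.19, adjusted p = 0.00394). Pdss1, which makes the tail, fell by 1.19 in EIIa-tg (SE 0.19, adjusted p = 0.0166). The list's medians were -1.17 in Myh6-tg and -0.70 in EIIa-tg. Those of the 8 complex II genes were -1.10 and -0.47, and those of the 4 subunits -1.21 and -0.38. These differences were not tested.

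Of the 7 tested genes of other dehydrogenases that feed ubiquinone, 4 were lower in Myh6-tg and 2 in EIIa-tg. Etfb, a subunit of the electron transfer flavoprotein of fatty acid oxidation, fell by 1.70 in Myh6-tg (SE 0.25, adjusted p = 0.00682). Etfdh, which passes those electrons to ubiquinone, fell by 0.57 in EIIa-tg (SE 0.13, adjusted p = 0.0271).

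The other parts of the respiratory chain were counted in the same way. Of 36 nuclear genes of complex I, 25 were lower in Myh6-tg and 9 in EIIa-tg, with Ndufs4 at -1.39 ± 0.23 in Myh6-tg (adjusted p = 0.00924) and Ndufa12 at -0.64 ± 0.13 in EIIa-tg (adjusted p = 0.0227). Of 10 nuclear genes of complex III and cytochrome c, 6 were lower in Myh6-tg and 1 in EIIa-tg, with Uqcr11 at -1.26 ± 0.25 (adjusted p = 0.0157) and Uqcrfs1 at -0.58 ± 0.16 (adjusted p = 0.0403). Of 13 genes of the mitochondrial genome, which encodes no part of complex II, 9 were lower in Myh6-tg and 1 in EIIa-tg, with mt-Nd3 at -1.88 ± 0.26 (adjusted p = 0.00522) and mt-Nd4l at -0.64 ± 0.17 (adjusted p = 0.0384). Of all genes tested, 9.38% were lower in Myh6-tg and 8.3% in EIIa-tg, and the EIIa-tg counts of 1 of 10 and 1 of 13 lie near that share. The medians of these lists were -1.12, -1.18 and -1.35 in Myh6-tg and -0.37, -0.43 and -0.41 in EIIa-tg, beside -1.21 and -0.38 for the complex II subunits. Per 100 FPKM of complex I there were 20.1 ± 0.792 FPKM of complex II subunits with EIIa-ctl against 18.9 ± 1.37 with EIIa-tg, and 18.5 ± 1.65 with Myh6-ctl against 16.1 ± 1.87 with Myh6-tg (SD, n = 3), with overlap within each model.

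**Figure D5:**
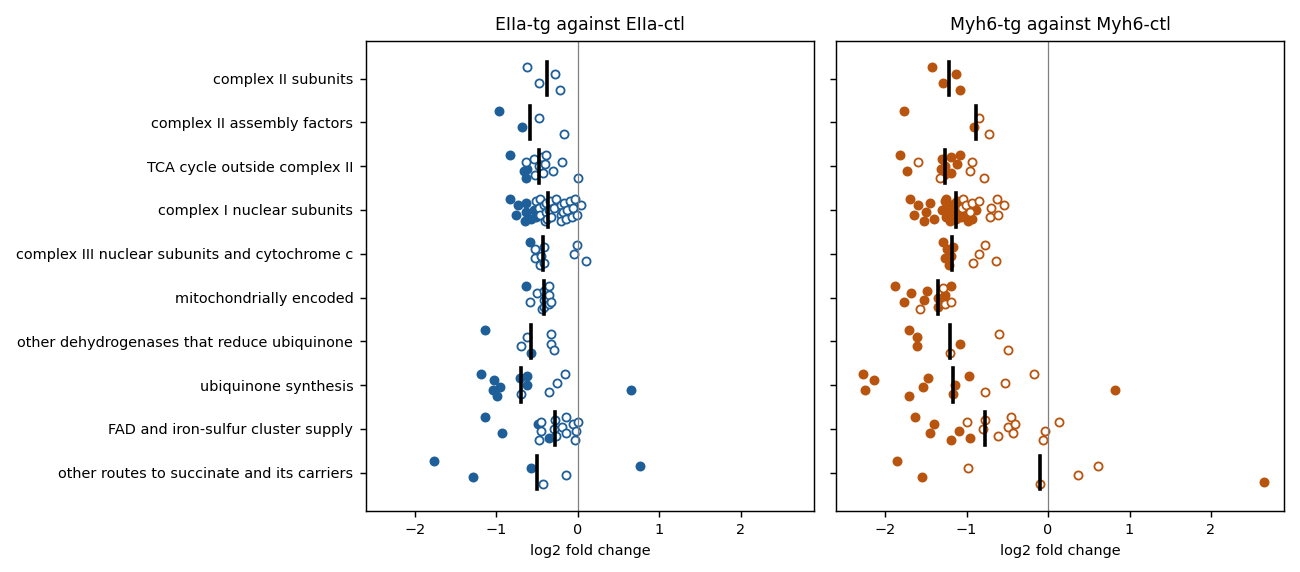
Log2 fold changes (horizontal axis) of each tested gene in the complex II lists and 8 related lists in EIIa-tg (left) and Myh6-tg hearts (right), with filled circles for an adjusted p under 0.05, open circles for the rest, black bars for the list medians and vertical jitter for display only. The medians lie between -0.70 and -0.29 on the left and between -1.35 and -0.10 on the right.

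How the genes varied between hearts of the same group was described by the deviation of log2 CPM from the group mean, over 12 hearts that share their library scaling. The 6 pairs of subunits had Pearson correlations of 0.74 to 0.96, and all 28 pairs of the 8 genes 0.17 to 0.96. Against the mean of the subunits, Sdhaf2 had a correlation of 0.90, Sdhaf1 of 0.71, Sdhaf3 of 0.69 and Sdhaf4 of 0.61. The order of these values was not tested. Among 8563 other genes, whose median correlation with the subunits was 0.05 and whose 90th percentile was 0.80, the genes most like the subunits were Apoo (0.99), a protein of the inner membrane's cristae, Slc25a4 (0.99), the ADP and ATP carrier, Idh3b (0.99) and Mdh2 (0.99) of the tricarboxylic acid cycle, and Ndufs3 (0.99) of complex I. Of these, Apoo and Idh3b were lower in Myh6-tg, by -1.38 (adjusted p = 0.0259) and -1.82 (adjusted p = 0.0146). The values of the other 3 in Myh6-tg were -1.26 for Slc25a4 (adjusted p = 0.0547), -0.94 for Mdh2 (adjusted p = 0.113) and -1.04 for Ndufs3 (adjusted p = 0.0578). In EIIa-tg, Idh3b (-0.65, adjusted p = 0.0393) and Ndufs3 (-0.52, adjusted p = 0.0460) were lower. There Apoo was at -0.49 (adjusted p = 0.0533), Slc25a4 at -0.51 (adjusted p = 0.0875) and Mdh2 at -0.43 (adjusted p = 0.0877).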

How the data were processed

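Heart RNA of 12 mice (3 per group) was sequenced by the authors as paired-end reads and mapped to GRCm38 with Hisat2. The submitters' processing notes list HISAT2 2.0.4 and StringTie 2.2.1. The counting program and the annotation are not given in the sources used here. The authors deposited counts, whole numbers of reads per gene with no normalization, and FPKM values, in which the authors scaled fragments to transcript length and to each heart's total. Tables held 25171 loci, 3135 of them named NewGene. The members and gene lists were chosen with earlier results of these data known.

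Counts were tested in R 4.3.3 with edgeR 4.0.16 (filterByExpr, TMM factors, glmQLFit, glmQLFTest), using the 6 hearts compared, or all 12 for the difference between models. P-values were adjusted by Benjamini-Hochberg over all genes tested and measure the spread between 3 hearts a group, labelled as biological replicates. CPM in the text were TMM-normalised over all 12 hearts, and correlations used log2 CPM (prior count 2). Totals of 38343106 to 50969834 counts set the precision. Scripts were tested on simulated data. Named genes were all 8 members, in each related list the gene with the lowest p and any called gene with the largest opposite change in each transgene comparison, the 5 genes most like the subunits among those averaging 10 CPM or more, and label checks. Cpsf7, Gm26524, E130208F15Rik, Snap25, Mbp, Syn1, Tnnt2, Fh1, Flad1 and Iscu were named outside this rule, after their values were seen, as were the second values given for Oxct1 and Abat.

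The titles number the replicates but state no pairing. Same-numbered hearts of the Myh6 groups deviated together (correlations of 0.17 to 0.28 over 15929 genes). Those of the EIIa groups did not (-0.07 to 0.06). Alternatives were DESeq2 1.42.0, RLE factors, no filter, a minimum of 1 CPM in 3 hearts, a replicate block, all 12 hearts in one fit, a covariate for Y-linked counts, removal of mt- genes or NewGene loci, limma 3.58.1 on log2 FPKM (pseudocount 1 or 0.1, with or without a minimum of 0.5 FPKM in 3 hearts), and leaving out each heart. Positions are from GENCODE M21 and promoter sequences from RefSeq. The table holds no row for the human transgene under its name, and the qPCR, blot and imaging data were not analysed here.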

Additional observations from a re-analysis of the deposited data

How the results depend on the processing

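Of the 8 genes, 6 lower in Myh6-tg became 2 by limma on log2 FPKM without a filter, against 3.87% of all genes tested. They became between 1 and 8 when single hearts were left out, against 2.58% to 13.9%. The 2 lower in EIIa-tg became 4 by DESeq2, against 8.92% of all genes, and 0 with all 12 hearts in one fit, against 0.32%. They became 0 by limma on log2 FPKM without a filter. When single hearts were left out they were between 0 and 5, against 0.0% to 13.8%. In EIIa-tg the limma fit without a filter and the replicate block each called 1 gene of the whole table, a higher one, so a count of 0 there is not particular to complex II. The replicate block, in which same-numbered hearts are compared, left 0 genes in EIIa-tg and 6 in Myh6-tg, where 11.2% of all genes were lower. It changed no other count of these genes at an adjusted p under 0.05. At the stricter limit the 1 gene in Myh6-tg became 2 with the block or the covariate for Y-linked counts, where 3.6% and 4.56% of all genes passed downwards. It became 5 by DESeq2 (6.19% of all genes) and in the fit of all 12 hearts (6.95%), and 0 by limma without a filter (0.509%). When single hearts were left out it was between 0 and 5, against 0.0879% to 6.09%. The difference between models passed for between 0 and 3 of the 8 genes when single hearts were left out, against 1.78% to 10.6% of all genes. The cause of these shifts was not tested. All 144 estimates of the 8 genes in Myh6-tg under the 18 alternatives stayed below 0.

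FPKM moved the median over genes passing its filter by 0.16 to 0.20 on the log2 scale in EIIa-tg and by 0.34 to 0.43 in Myh6-tg. On that scale Sdhc in EIIa-tg was at 0.00906 or 0.00912 and Sdhaf1 at 0.0249 or 0.0284, still below the median of all genes. Between the control groups, Sdhaf3 was at -0.0156 with the replicate block, -0.00118 or -0.00461 on FPKM, -0.0467 without EIIa-ctl replicate 2, and between -0.198 and 0.166 when single hearts were left out, where Sdhaf1 was between -0.326 and 0.040. Depth did not limit the subunits, but Sdhaf3 rested on 159 to 432 counts per heart, and 3 hearts a group limit every test.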
